A study of Mus musculus with 32 samples.

Results

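The genes described here are 9 that encode subunits of RNA polymerase III, out of 56415 genes in the annotated count table: Polr3a, Polr3b, Polr3c, Polr3d, Polr3e, Polr3f, Polr3g, Polr3gl and Polr3k. They were matched by gene symbol, each to 1 identifier, and were chosen by the measured level of Polr3e, which was lower after prenatal ethanol in ACSS2-knockout hippocampus. The levels of Polr3e in that comparison are therefore given as a description, with no test, and the same holds for every comparison between hippocampal groups that uses the same knockout libraries. All 9 passed the filter on low counts in both tissues.

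PolyA RNA was sequenced in 32 libraries. They came from 16 C57BL/6J mice, and both cerebellar vermis (Vms) and dorsal hippocampus (dHPC) of each mouse were used. The 4 kinds of mice were KO cPAE (ACSS2 knockout, prenatal ethanol), KO cPSE (ACSS2 knockout, prenatal saline), WT cPAE (wild type, prenatal ethanol) and WT cPSE (wild type, prenatal saline), with 2 females (F1, F3) and 2 males (M1, M3) of each kind. ACSS2 makes acetyl-CoA from acetate, which is formed when ethanol is broken down. Dams of every group, controls included, were injected intraperitoneally once a day until birth, with ethanol at 3 g per kg in the cPAE groups or with saline in the cPSE groups, and the offspring were killed between postnatal day 40 and 50. How the knockout allele was made, whether it is confined to a tissue and which mice shared a litter are not given in the sources used here.

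RNA polymerase III transcribes short untranslated RNAs, among them the tRNAs, 5S ribosomal RNA, 7SK RNA, the RNA of the signal recognition particle and, in rodent neurons, the BC1 RNA. Its largest subunits form the catalytic centre, a dimer of Polr3d and Polr3e works in initiation and termination, and a separate group of Polr3c, Polr3f and either Polr3g or Polr3gl helps to open the DNA. Many of its genes are read through promoter elements inside the transcribed sequence, the A box and the B box.

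Sequence upstream of Polr3e is shown because it holds a gene of the kind that the polymerase itself reads. RefSeq windows of 250 bases before and 50 after the start were found for 7 of the 9 genes, and the set used here held none for Polr3a or Polr3d. The 250 bases before the Polr3e start lie on the plus strand at chr7:120917528-120917777 of GRCm38.p6, 5′ to 3′, and the letters GGTTCG, with which the B box begins and which were searched on both strands, are in capitals.

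Polr3e upstream: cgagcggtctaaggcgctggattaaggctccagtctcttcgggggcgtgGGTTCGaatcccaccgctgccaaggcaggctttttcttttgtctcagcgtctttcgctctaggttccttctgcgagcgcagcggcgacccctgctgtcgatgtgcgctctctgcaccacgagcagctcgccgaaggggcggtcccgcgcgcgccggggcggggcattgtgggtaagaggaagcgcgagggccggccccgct

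RefSeq places the tRNA gene n-TLaag4 there, and 71 of its 82 bases fall in the window. Of the 32851 RefSeq windows, 10 (0.0304%) overlap a tRNA gene and 4.72% hold the letters GGTTCG on either strand; among the 7 windows of the polymerase genes, that of Polr3e is the only one with these letters. The E box letters CACGTG, on either strand, are in the windows of Polr3c, Polr3e and Polr3gl and in 7.15% of all windows. Both motifs were chosen after the sequence was seen, and a match of letters is a description and not a site of binding.

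Sequencing depth ran from 23085928 to 73803508 counts per library in vermis and from 54092519 to 96664509 in hippocampus, so that a level of 1 CPM, the count scaled by library size, stood for at least 23.1 counts. The shallowest was the KO cPAE vermis library F3. Acss2 itself averaged 15.5 ± 4.74 CPM in KO cPAE and 18.0 ± 1.11 CPM in KO cPSE vermis, against 61.0 ± 4.96 in WT cPAE and 61.9 ± 5.27 in WT cPSE vermis (SD, n = 4 each). In hippocampus it averaged 11.5 ± 0.624 CPM in KO cPAE and 12.6 ± 1.08 CPM in KO cPSE, against 58.1 ± 3.62 in WT cPAE and 53.3 ± 3.47 in WT cPSE. The summed CPM of 8 markers of cerebellar neurons was 2224 to 8578 in vermis and 87.7 to 557 in hippocampus, and that of 8 markers of hippocampal neurons was 240 to 361 in vermis and 1096 to 1768 in hippocampus. The KO cPAE vermis library F1 stood apart, with the lowest cerebellar sum of its tissue, 2224 CPM, and the highest sum of 9 oligodendrocyte markers of its tissue, 13130 CPM, so the results between KO cPAE and WT cPAE vermis are also given without it. By the chi-square of counts over degrees of freedom, the WT cPSE vermis library F1 differed most from its group. Its pairs had 205 to 234, and the other pairs of that group 9.45 to 20.0. Pairs of the KO cPAE vermis library F1 with its group had 107 to 178. The tissues are mixtures of cells, in which fewer cells of a type and less RNA per cell cannot be told apart.

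The subunits differed widely in level. Levels between genes are compared as CPM per kilobase of exonic length, scaled within a tissue. In hippocampus Polr3gl had the highest mean, 11.5 ± 0.995, and was followed by Polr3k, a small subunit that works in termination and RNA cleavage, at 11.1 ± 0.654, and by Polr3e at 9.57 ± 1.54 CPM per kilobase (SD, n = 16). Polr3d at 5.96 and Polr3c at 5.21 came next, then the largest subunit Polr3a at 4.90, Polr3f at 3.49 and the second largest subunit Polr3b at 3.46, and Polr3g was last at 1.16 CPM per kilobase. The ranges over libraries of neighbours in this order overlapped except between Polr3e and Polr3d, between Polr3a and Polr3f, and between Polr3b and Polr3g.

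In vermis the order began with Polr3k at 16.5 ± 1.21, Polr3gl at 12.3 ± 0.901 and Polr3e at 8.20 ± 0.811 CPM per kilobase, and again ended with Polr3g, at 0.855 ± 0.142. There the neighbours without overlap were Polr3e and Polr3c, Polr3a and Polr3b, and Polr3f and Polr3g. Polr3g and Polr3gl encode alternative forms of the same subunit, of which the Polr3g form is known from undifferentiated and dividing cells and the Polr3gl form from most adult tissues. The level of Polr3g was 6.99% ± 1.46 of that of Polr3gl in vermis and 10.2% ± 1.23 in hippocampus (SD, n = 16 each), and no library exceeded 12.3%. The plot of levels shows this order, with Polr3g far under the other 8.

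**Figure D1:**
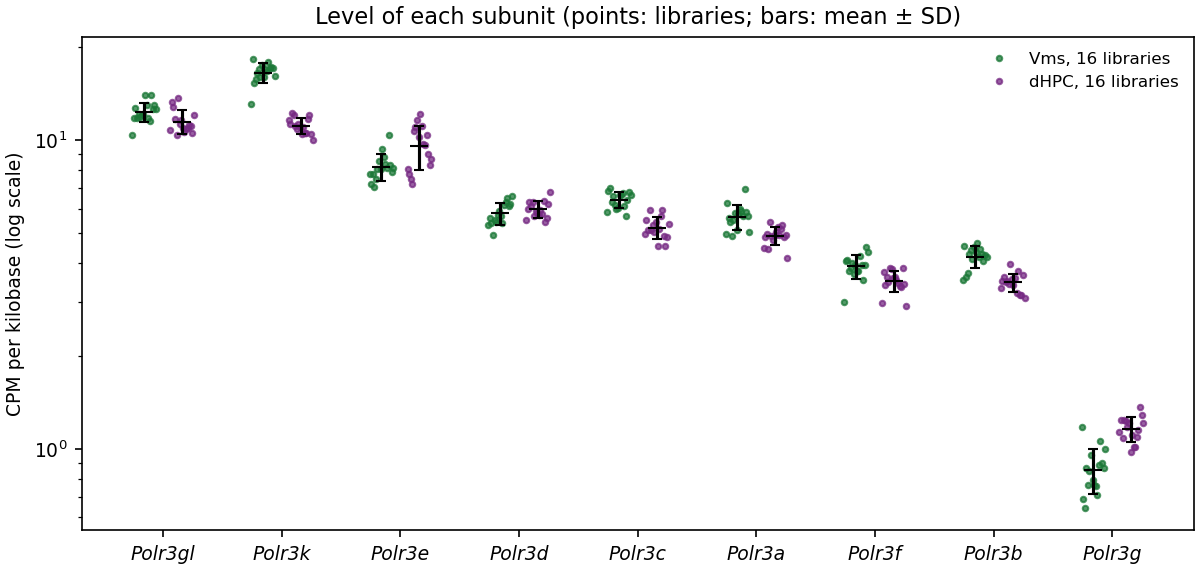
Level of each subunit in CPM per kilobase on a log scale, with 1 point per library, vermis left of hippocampus, and bars for the mean ± SD over 16 libraries. Polr3g lies lowest in both tissues, and the hippocampal points of Polr3e spread widest for a gene of its level.

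Among the 9 genes, Polr3e varied most across the hippocampal libraries, with a coefficient of variation of 16.1% against 5.88% to 9.23% for the other 8. In vermis its coefficient was 9.88%, and Polr3g had the highest, 16.7%. The spread of Polr3e in hippocampus contains the difference for which the genes were chosen.

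Polr3e is encoded on the plus strand of chromosome 7 at positions 120516967 to 120546655 (GRCm39), with 5024 exonic bases. In hippocampus it had 40.6, 38.9, 37.6 and 36.3 CPM in the KO cPAE libraries F1, F3, M1 and M3, against 53.9, 55.4, 58.4 and 51.2 CPM in the KO cPSE libraries F1, F3, M1 and M3. All KO cPAE libraries were below all KO cPSE libraries, and also below the other 8 hippocampal libraries, whose lowest had 41.6 CPM. The groups averaged 38.3 ± 1.85 CPM in KO cPAE and 54.7 ± 2.99 CPM in KO cPSE hippocampus (SD, n = 4 each), which is a log2 fold change of -0.52 ± 0.068 (SE), or 0.699-fold. For comparison, 0.0513% of the 23394 genes tested passed an adjusted p of 0.05 in that contrast, and 2.76% had KO cPAE libraries that were all below the KO cPSE libraries. No test of Polr3e is given here, since this difference chose the genes.

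In the same contrast the other 8 subunits lay between -0.10 for Polr3f and 0.09 for Polr3k on the log2 scale, and 5 of them were above 0. These 8 values are also part of the contrast that chose the genes and are given as a description. Polr3d, the partner of Polr3e in its dimer, had 17.0 ± 0.980 CPM in KO cPAE and 16.9 ± 0.783 CPM in KO cPSE hippocampus (SD, n = 4 each). Polr3c, which lies in the neighbouring subcomplex, had 18.2 ± 1.50 CPM in KO cPAE and 17.7 ± 0.590 CPM in KO cPSE hippocampus.

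Marker sums that moved with the same libraries were examined beside this difference. All 9 choroid plexus markers, all 9 oligodendrocyte markers, all 10 microglia markers and all 6 markers of striatal neurons had a positive log2 fold change in KO cPAE against KO cPSE hippocampus, with medians of 1.48, 0.37, 0.16 and 0.84. None of these markers passed edgeR's quasi-likelihood test, and 4, all of microglia, had an unadjusted p under 0.05. In WT hippocampus, cPAE over cPSE, where Polr3e was at 0.22, most of these lists moved the same way. There 9 of 9 choroid plexus, 8 of 9 oligodendrocyte and 6 of 6 striatal markers were positive, with medians of 0.49, 0.28 and 0.23. Of the 10 microglia markers 4 were positive, with a median of -0.02. The choroid plexus sum was 412 to 5179 CPM in KO cPAE and 174 to 2143 CPM in KO cPSE hippocampus. Among the KO cPAE libraries that sum was 412 CPM in M1, 453 in F3, 5179 in M3 and 4519 in F1, and Polr3e was 37.6 CPM in M1, 38.9 in F3, 36.3 in M3 and 40.6 in F1. The oligodendrocyte sum was 6658 to 15933 CPM in KO cPAE and 5328 to 10221 CPM in KO cPSE hippocampus, and the microglia sum was 346 to 400 CPM in KO cPAE and 313 to 349 CPM in KO cPSE hippocampus. The striatal sum was 65.8 to 334 CPM in KO cPAE and 59.9 to 133 CPM in KO cPSE hippocampus, and was also highest in the KO cPAE libraries F1 and M3. The part of any of these cells in the Polr3e difference was not tested.

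In wild-type hippocampus the direction was the opposite. Polr3e had 60.8, 55.7, 48.8 and 48.6 CPM in the WT cPAE libraries F1, F3, M1 and M3, against 52.2, 45.4, 41.6 and 43.7 CPM in the WT cPSE libraries F1, F3, M1 and M3. The ranges overlapped only through the WT cPSE library F1. The log2 fold change was 0.22 ± 0.068 (SE), with a 95% interval of 0.081 to 0.366, and it did not pass edgeR's quasi-likelihood test with Benjamini-Hochberg adjustment over all genes (adjusted p = 0.317). The difference between the KO and WT exposure effects on Polr3e was -0.74 ± 0.096 on the log2 scale, which contains the contrast that chose the genes and is given without a test.

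Set against wild type, Polr3e was higher in KO cPSE than in WT cPSE hippocampus, by a log2 fold change of 0.26 ± 0.067, and the single WT cPSE library F1 overlapped the KO cPSE range. It was lower in KO cPAE than in WT cPAE hippocampus, by -0.48 ± 0.068 or 0.719-fold, and those groups did not overlap, where 3.34% of all genes were without overlap in that direction. The same comparison had 1 further subunit without overlap, Polr3k, with 36.9 ± 1.32 CPM in KO cPAE and 33.2 ± 0.740 CPM in WT cPAE hippocampus (SD, n = 4 each), where 3.4% of all genes were without overlap in the higher direction. These comparisons share libraries with the one that chose the genes and were not tested. The plot of Polr3e by library shows the KO cPAE hippocampal libraries below the rest of their tissue.

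**Figure D2:**
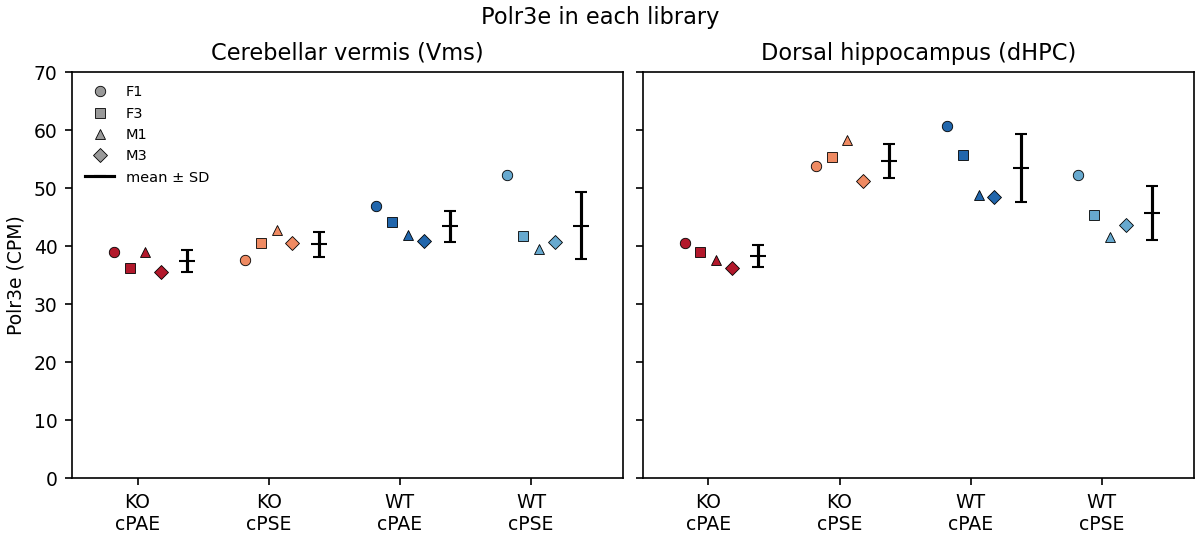
Polr3e in CPM in each library of vermis (left) and hippocampus (right), by genotype and prenatal exposure, with symbols for the replicate labels and bars for the mean ± SD of 4 libraries. In hippocampus the KO cPAE libraries (36.3 to 40.6 CPM) lie below the other 12, and in vermis 1 other library lies below the highest KO cPAE library.

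The Polr3e reads were then divided by their place in the transcript. Polr3e has 3 protein-coding models in the deposited transcript table, which end at different points of the same last exon. The longest, Polr3e-201, runs 1183 bases past the end of Polr3e-202, at positions 120545473 to 120546655 of chromosome 7 (GRCm39), and no other annotated gene has exons there. In the GENCODE annotation of GRCm38, 1900 bases follow the stop codon in Polr3e-201 and 717 in Polr3e-202, so the far end belongs to the 3′ untranslated region. Counts of Polr3e-201 minus counts of Polr3e-202 stand for reads in that far end together with 23 other bases that only Polr3e-201 holds.

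The far end was lower in KO cPAE hippocampus to a greater degree than the rest of the transcript. It had 10.5 ± 2.24 CPM (here per library total of gene counts) in KO cPAE and 20.2 ± 3.04 in KO cPSE hippocampus (SD, n = 4 each), a ratio of 0.520, and the libraries ranged from 8.84 to 13.8 in KO cPAE and from 16.4 to 23.4 in KO cPSE. The rest of the transcript had 27.0 ± 0.941 in KO cPAE and 34.7 ± 1.25 in KO cPSE hippocampus, a ratio of 0.776. Neither part overlapped between these groups. The far end made up 25.1% to 34.4% of the Polr3e-201 counts in KO cPAE and 31.8% to 39.8% in KO cPSE hippocampus, and only the KO cPAE library F1, at 34.4%, reached into the KO cPSE range.

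In WT hippocampus the far end had 19.2 ± 2.88 in cPAE and 14.8 ± 3.90 CPM in cPSE, a ratio of 1.29, and the rest had a ratio of 1.11. In vermis the ratio of the far end was 0.866 in KO and 1.00 in WT, and that of the rest was 0.936 in KO and 0.989 in WT, cPAE over cPSE. The far end thus had the ratio farther from 1 in both hippocampal comparisons and in the KO vermis. These values come from the same libraries as the choice of the genes, or were looked at after it, and carry no test.

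**Figure D3:**
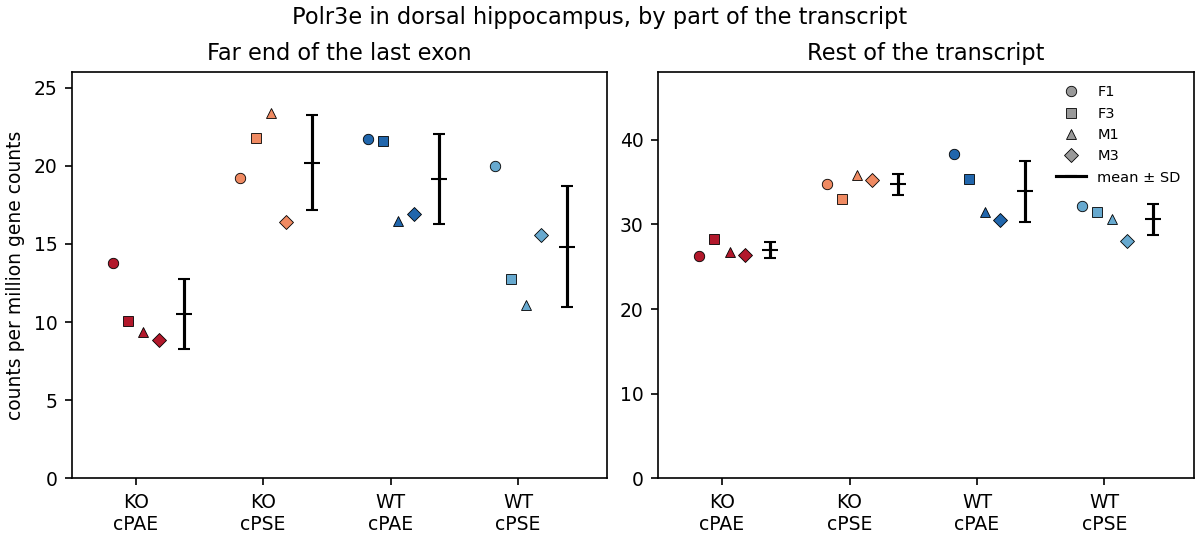
Polr3e in dorsal hippocampus, in CPM per library total of gene counts, for the far end of the last exon (left) and the rest of the transcript (right) in each library, with bars for the mean ± SD of 4 libraries. KO cPAE libraries lie below the KO cPSE libraries in both panels, with means of 10.5 against 20.2 in the far end and 27.0 against 34.7 in the rest.

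Prenatal ethanol in wild-type hippocampus was tested for all 9 subunits, and 0 passed, where 0% of the 23394 genes passed. At an unadjusted p under 0.05 there were 2 of the 9, Polr3e and Polr3g, where 10.5% of all genes had such a p, and DESeq2 called 0 of the 9 and 128 genes in all. Polr3g had 4.37, 3.99, 3.99 and 4.31 CPM in the WT cPAE libraries F1, F3, M1 and M3, against 4.53, 5.39, 5.05 and 4.77 CPM in the WT cPSE libraries F1, F3, M1 and M3. All WT cPAE libraries were below the WT cPSE libraries, which holds for 2.72% of all genes. Its log2 fold change was -0.24 ± 0.107 (SE), with an adjusted p of 0.445 by edgeR's quasi-likelihood test. The remaining 7 lay between -0.05 for Polr3k and 0.12 for Polr3c.

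In vermis the exposure comparisons could be tested, since the rule did not use them. In KO vermis 0 of the 9 subunits passed, where 0.0891% of the 22441 genes passed; 1 of the 9 had an unadjusted p under 0.05, as 13.3% of all genes had, and DESeq2 called 0. Polr3e had 39.1, 36.3, 39.0 and 35.5 CPM in the KO cPAE vermis libraries F1, F3, M1 and M3, against 37.6, 40.6, 42.8 and 40.5 CPM in the KO cPSE libraries F1, F3, M1 and M3. The ranges overlapped through the KO cPSE library F1. The log2 fold change of -0.11 ± 0.078 had an adjusted p of 0.506 by edgeR's quasi-likelihood test, with a 95% interval of -0.274 to 0.0594.

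The unadjusted p under 0.05 in KO vermis belonged to Polr3b, a part of the catalytic centre. It had 18.5, 23.9, 19.0 and 19.5 CPM in the KO cPAE libraries F1, F3, M1 and M3, against 22.6, 23.2, 21.7 and 23.8 CPM in the KO cPSE libraries F1, F3, M1 and M3. The KO cPAE library F3 stood above all KO cPSE libraries, and the other 3 below them. That library was also the shallowest, with 548 counts of Polr3b against 777 to 1138 in the other 3. The log2 fold change was -0.18 ± 0.072, with an adjusted p of 0.363 by edgeR's quasi-likelihood test. Without F3 it was -0.27 with an adjusted p of 0.0364, and without F1 it was -0.13 with an adjusted p of 0.828.

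In WT vermis 0 of the 9 subunits passed, where 0.00446% of all genes passed; 0 had an unadjusted p under 0.05, as 5.32% of all genes had, and DESeq2 called 0. Polr3e had 46.9, 44.2, 41.9 and 40.8 CPM in the WT cPAE libraries F1, F3, M1 and M3, against 52.2, 41.8, 39.6 and 40.7 CPM in the WT cPSE libraries F1, F3, M1 and M3. The groups overlapped over most of their range, and the 95% interval of the log2 fold change ran from -0.168 to 0.163. The other 8 lay between -0.30 for Polr3g and 0.07 for Polr3b.

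The test of whether the exposure effect in vermis differed between KO and WT called 0 of the 9, where 0.107% of all genes passed; 1 had an unadjusted p under 0.05, as 11.2% of all genes had, and DESeq2 called 0. For Polr3e the difference of effects was -0.10 ± 0.110 (adjusted p = 0.697 by edgeR's quasi-likelihood test), with a 95% interval of -0.340 to 0.130. Polr3b had the unadjusted p under 0.05, with a difference of -0.25 ± 0.102 and an adjusted p of 0.403. The plot of exposure effects sets the 4 comparisons side by side.

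**Figure D4:**
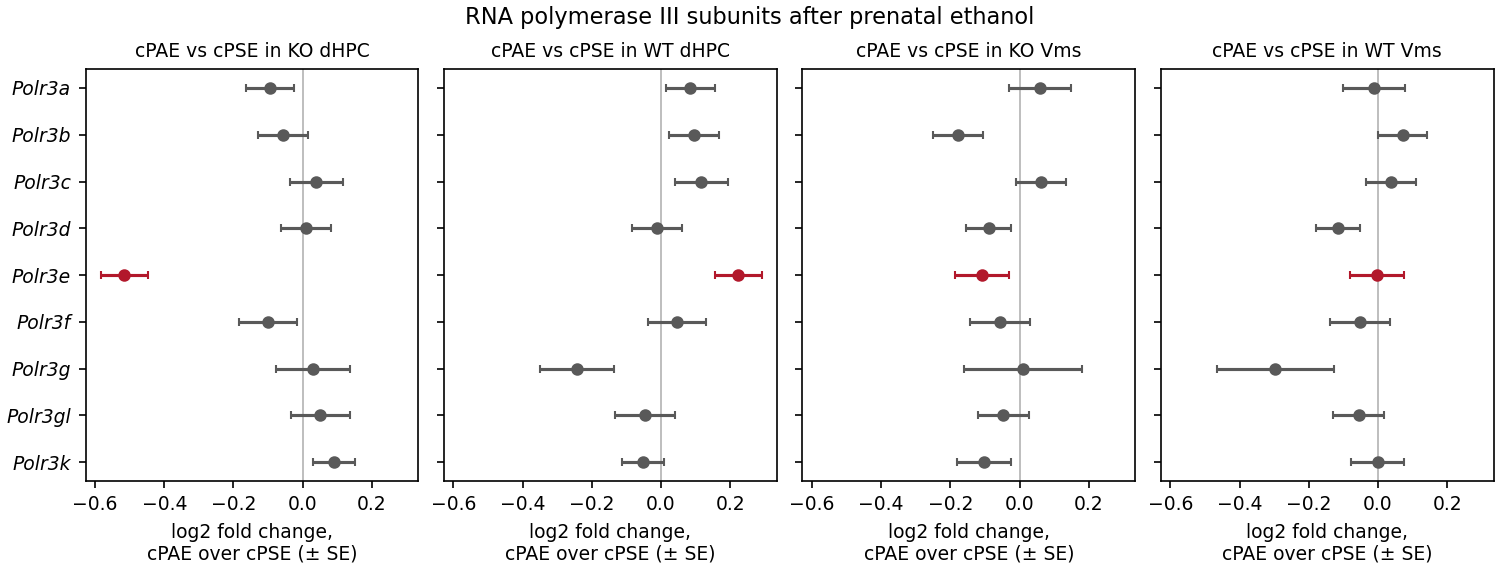
Log2 fold change of each subunit after prenatal ethanol, cPAE over cPSE, in KO hippocampus, WT hippocampus, KO vermis and WT vermis, with bars for the standard error. Polr3e, in red, is at -0.52 in KO hippocampus, where the other 8 lie between -0.10 and 0.09, and at 0.22, -0.11 and 0.00 in the other comparisons.

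The genotype was tested in vermis within each exposure. Within cPAE, 0 of the 9 subunits passed between KO and WT vermis, where 7.53% of all genes passed; 3 of the 9 had an unadjusted p under 0.05, namely Polr3b, Polr3d and Polr3e, as 25.5% of all genes had, and DESeq2 called 1, Polr3b. Of the 9, 8 had a negative log2 fold change, with a median of -0.11 against 0.03 over all genes. The exception was Polr3g at 0.12, which was -0.09 without the KO cPAE library F1; without that library Polr3c and Polr3f were at 0.03 and 0.00, and the median was -0.04.

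Polr3e had 37.5 ± 1.85 CPM in KO cPAE and 43.5 ± 2.67 CPM in WT cPAE vermis (SD, n = 4 each). The highest KO cPAE library had 39.1 CPM and the lowest WT cPAE library 40.8 CPM, so the groups did not overlap, which in the lower direction holds for 3.95% of all genes. The log2 fold change was -0.21 ± 0.078, with a 95% interval of -0.378 to -0.0442 and an adjusted p of 0.115 by edgeR's quasi-likelihood test. It was -0.24 with an adjusted p of 0.0232 when the WT cPSE library F1, which helps to set the spread, was left out, and -0.22 with an adjusted p of 0.192 without the KO cPAE library F1.

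Polr3b was 20.2 ± 2.48 CPM in KO cPAE and 23.2 ± 1.02 CPM in WT cPAE vermis, and the KO cPAE library F3 at 23.9 CPM again lay inside the WT range. Its log2 fold change was -0.20 ± 0.072 with an adjusted p of 0.106 by edgeR's quasi-likelihood test, and the adjusted p was 0.0234 by DESeq2. Without the KO cPAE library F3 the adjusted p was 0.00391 for Polr3b, at a log2 fold change of -0.30, and 0.0278 for Polr3k, at -0.22. In that fit 5092 of all genes passed.

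These genotype differences within cPAE stood beside differences in cell markers. All 8 cerebellar neuron markers had a negative log2 fold change in KO cPAE against WT cPAE vermis (median -0.39, 0 passed and 0 had an unadjusted p under 0.05). All 10 microglia markers (median 0.54, 1 passed, 6 had such a p) and all 9 oligodendrocyte markers (median 0.43, 0 passed, 1 had such a p) had a positive one. So did 8 of 9 choroid plexus markers (median 1.45, 1 passed, 3 had such a p) and 5 of 6 endothelium markers (median 0.24, 1 passed, 4 had such a p). Of all genes 25.5% had such a p. The cerebellar sum was 2224 to 8179 CPM in KO cPAE and 6883 to 8578 CPM in WT cPAE vermis. Without the KO cPAE library F1 the cerebellar sum of that group was 4512 to 8179 CPM. The medians were then -0.13 for cerebellar neurons, 0.28 for microglia, -0.03 for oligodendrocytes, 0.95 for the choroid plexus and 0.17 for the endothelium. The part of these cells in the subunit differences was not tested.

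Within cPSE, 0 of the 9 subunits passed between KO and WT vermis, where 4.91% of all genes passed; 1 had an unadjusted p under 0.05, as 14% of all genes had, and DESeq2 called 0. That gene was Polr3d, with 15.7, 15.5, 16.4 and 16.8 CPM in the KO cPSE libraries F1, F3, M1 and M3, against 18.5, 17.5, 17.7 and 18.9 CPM in the WT cPSE libraries F1, F3, M1 and M3. All KO cPSE libraries were below the WT cPSE libraries for Polr3d and, more narrowly, for Polr3gl, which holds for 4.36% of all genes. The log2 fold change of Polr3d was -0.17 ± 0.064 (adjusted p = 0.182 by edgeR's quasi-likelihood test) and that of Polr3gl was -0.11 ± 0.074. Polr3e had 40.4 ± 2.15 CPM in KO cPSE and 43.6 ± 5.85 CPM in WT cPSE vermis (SD, n = 4 each), a log2 fold change of -0.11 ± 0.078 with an adjusted p of 0.647.

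A further 8 subunit genes of the polymerase, listed with earlier results known, were set beside these in the same vermis comparisons. They comprise Crcp, which belongs to polymerase III alone, Polr1c and Polr1d, shared with polymerase I, and Polr2e, Polr2f, Polr2h, Polr2k and Polr2l, shared with both other nuclear polymerases. Within cPAE, 4 of these 8 rose in KO against WT vermis, where 5.74% of all genes did, namely Polr2k by 0.70, Polr2h by 0.62, Polr2f by 0.55 and Polr1c by 0.35 on the log2 scale. Within cPSE, 6 of these 8 rose in KO against WT vermis, where 4.63% of all genes did, namely Polr2f by 0.56, Polr2h by 0.52, Polr2k by 0.47, Polr1d by 0.37, Polr2l by 0.34 and Polr1c by 0.30 on the log2 scale. The count within cPSE was 3 when the KO cPSE library F1, the WT cPSE library F3 or the WT cPSE library M1 was left out. Crcp was at -0.05 within cPAE and at -0.18 within cPSE, and did not pass. Without the KO cPAE library F1, again 4 of these 8 passed within cPAE, with Polr2k at 0.65, Polr2h at 0.66, Polr2f at 0.52 and Polr1c at 0.41.

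Polr2h showed the difference in each library. It ranged from 8.15 to 9.50 CPM in KO cPAE and from 8.44 to 10.5 CPM in KO cPSE vermis, against 5.25 to 6.32 CPM in WT cPAE and 6.13 to 6.98 CPM in WT cPSE vermis. No KO library overlapped a WT library of the tissue; within cPAE 8.34% and within cPSE 8.6% of all genes were higher in KO vermis without overlap. Its adjusted p was 0.000356 within cPAE and 0.00163 within cPSE by edgeR's quasi-likelihood test. In hippocampus it averaged 5.69 CPM in KO cPAE and 6.39 CPM in KO cPSE, against 7.14 CPM in WT cPAE and 8.46 CPM in WT cPSE, so that the KO means were there the lower ones.

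Genes that rose in KO vermis were short. The median exonic length was 1570 bases for the genes called higher within cPAE and 1246.5 bases for those within cPSE, against 3509 bases for all genes tested. Of genes up to 1000 bases, 13.9% passed as higher within cPAE and 13.7% within cPSE, and of genes over 4000 bases 2.05% passed as higher within cPAE and 0.932% within cPSE. The 9 Polr3 genes have a median length of 3936 bases and the further 8 subunit genes one of 1964 bases. Among 31 subunit genes of the 3 nuclear polymerases, 6 of the 10 under 2000 bases rose within cPAE and 7 of the 10 within cPSE, against 2 of the 21 longer ones within cPAE and 3 within cPSE. Of the 6 genes for subunits of polymerase I alone, Polr1h rose within each exposure, and of the 8 for polymerase II alone Polr2g, Polr2i and Polr2j did. Polr3gl is the only one of the 9 Polr3 genes under 2000 bases, and its log2 fold change was -0.11 both within cPAE and within cPSE. With an offset for gene length in the fit, 4 of the further 8 subunits of the polymerase still passed within cPAE and 5 within cPSE, where Polr2k was at 0.22 and no longer passed (adjusted p = 0.318 by edgeR's quasi-likelihood test). Polr1h and Polr2i passed within neither exposure with this offset. Over 24 alternative settings Polr2i did not pass in 19 within cPAE and 12 within cPSE, and Polr1h did not pass in 9 within each.

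**Figure D5:**
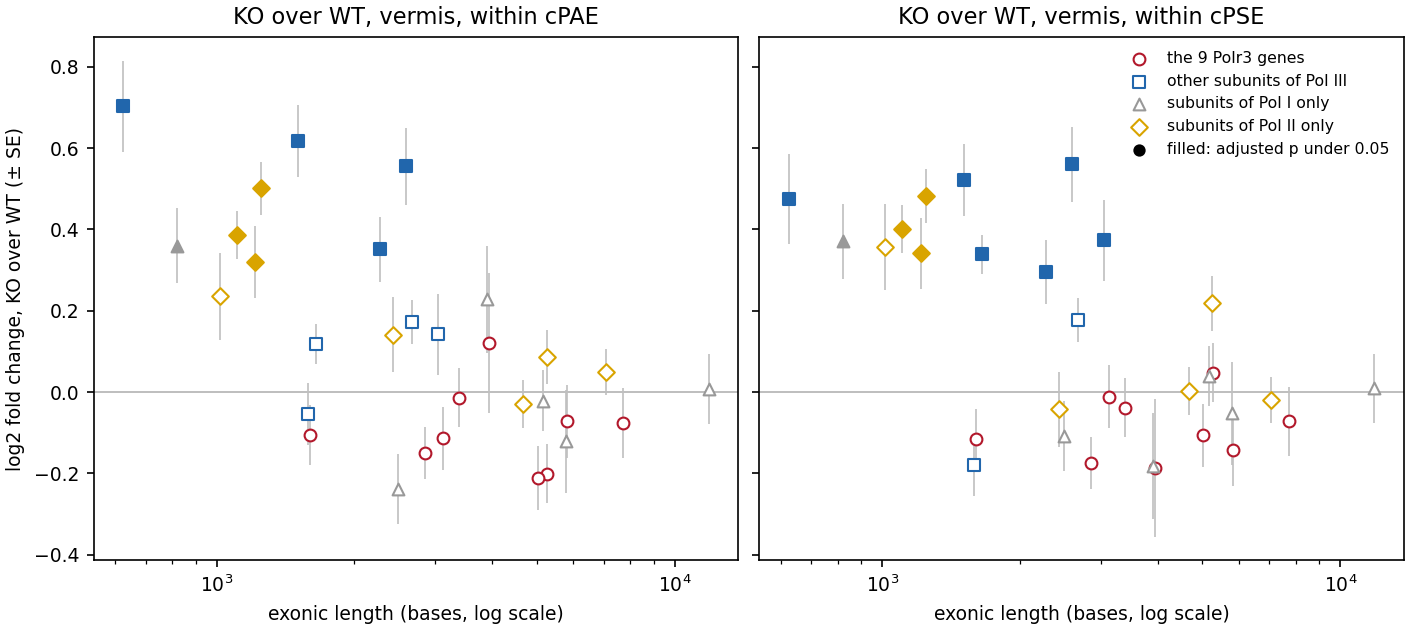
Log2 fold change in vermis, KO over WT, of the subunit genes of the nuclear RNA polymerases against exonic length on a log scale, within cPAE (left) and within cPSE (right), with bars for the standard error and filled symbols for genes with an adjusted p under 0.05. The 9 Polr3 genes are unfilled in both panels, while 4 of the further 8 subunits of the polymerase within cPAE and 6 within cPSE are filled and lie above 0, up to 0.70 for Polr2k within cPAE.

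Of the RNAs that the polymerase makes, BC1 was the one that passed with all libraries in the fit. BC1 is a rodent RNA of neuronal dendrites, and its sequence is shown because it carries the polymerase's internal promoter and a run of A inside the RNA, in libraries that were made from polyA RNA. The gene lies at chr7:144914470-144914637 of GRCm38 on the plus strand, the sequence is that of GENCODE, and the letters GGTTCG, with which the B box begins, are in capitals.

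Bc1 RNA: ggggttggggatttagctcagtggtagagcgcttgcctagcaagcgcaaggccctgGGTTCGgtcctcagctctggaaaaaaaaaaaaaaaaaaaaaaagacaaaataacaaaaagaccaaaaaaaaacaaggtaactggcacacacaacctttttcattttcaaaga

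The longest run of A has 23 bases. In the deposited table Bc1 is at positions 144468199 to 144468374 of chromosome 7 (GRCm39), where 35 of its 176 bases overlap a gene on the opposite strand, and without a stated strand setting the reads of the 2 genes cannot be told apart.

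Bc1 had 99.0, 38.3, 52.2 and 82.5 CPM in the KO cPAE vermis libraries F1, F3, M1 and M3, against 10.6, 8.28, 4.48 and 9.01 CPM in the WT cPAE libraries F1, F3, M1 and M3. It had 42.2, 54.9, 59.1 and 49.2 CPM in the KO cPSE vermis libraries F1, F3, M1 and M3, against 5.90, 8.89, 9.25 and 12.7 CPM in the WT cPSE libraries F1, F3, M1 and M3. Every KO vermis library was above every WT vermis library. Bc1 rose by 3.07 ± 0.347 on the log2 scale within cPAE (adjusted p = 8.65e-05) and by 2.49 ± 0.337 within cPSE (adjusted p = 0.000461) by edgeR's quasi-likelihood test. Without the KO cPAE library F1 the value within cPAE was 2.76, with an adjusted p of 0.000463.

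In hippocampus the KO libraries were not the higher ones. Bc1 had 11.2 to 20.1 CPM in KO cPAE and 10.7 to 16.3 CPM in KO cPSE, against 13.7 to 50.4 CPM in WT cPAE and 29.6 to 38.7 CPM in WT cPSE hippocampus. The saline groups did not overlap there and the ethanol groups did. The 15 identifiers listed for RNAs of polymerase III also include those of Terc, which polymerase II transcribes. Of the 15, 11 passed the low-count filter in vermis and 5 in hippocampus. All 11 had a positive log2 fold change in KO against WT vermis within both exposures. The median was 2.11 within cPAE and 0.78 within cPSE, though 10 did not pass with all libraries in the fit. At an unadjusted p under 0.05 there were 8 of the 11 within cPAE, where 25.5% of all genes had such a p, and 2 within cPSE, where 14% had. DESeq2 called 3 within cPAE and 1 within cPSE. The calls depended on single libraries: without the WT cPSE library F1, 8 passed within cPAE and 11 within cPSE, and without the WT cPSE library F3 or the KO cPAE library F3, 3 passed within cPAE. Over the alternative settings, single libraries left out included, 693 to 5092 of all genes passed within cPAE and 760 to 1505 within cPSE. Without the KO cPAE library F1, 1 passed within cPAE, and 8 had an unadjusted p under 0.05, as 16.9% of all genes then had. Rn7sk, the 7SK RNA, had a log2 fold change of 2.41 ± 0.951 within cPAE, which was 2.69 ± 1.07 without the KO cPAE library F1, and of 0.19 ± 0.884 within cPSE. Some of these, such as Rmrp and Rny1, are listed under 2 identifiers that share their reads and are not independent. Between exposures, cPAE over cPSE, 0 of the 11 were above 0 in WT vermis (median -1.80) and 1 in KO vermis (median -0.11). None passed in either. The 15 identifiers are 102 to 423 bases long, and of genes up to 1000 bases 13.9% passed as higher in KO vermis within cPAE and 13.7% within cPSE. The part of gene length in the values of these RNAs was not tested.

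Transcription factors of the polymerase, 16 genes for the subunits of TFIIIA, TFIIIB, TFIIIC and SNAPc, and 8 regulators, among them the repressor Maf1 and the RNA-binding protein Ssb, were listed with earlier results known. Over the 10 exposure, genotype and interaction comparisons, 0 of the 24 passed edgeR's quasi-likelihood test, and 29 of the 240 values (12.1%) had an unadjusted p under 0.05. The share over all genes was 5.32% to 25.5% in these comparisons, with a mean of 11.8%. Between KO cPAE and WT cPAE vermis DESeq2 called 3 of the 16 factors, and it called more of all genes there than edgeR did. When the KO cPAE library F3 was left out, 7 of the 16 factors passed edgeR's test, as did 5092 of all genes. The medians over the 10 comparisons lay between -0.07 and 0.06 for the factors and between -0.08 and 0.06 for the regulators.

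The clearest differences of the 9 subunits that the rule did not fix were those between tissues. Each mouse gave both tissues. With mouse as a block 7 of the 9 differed between vermis and hippocampus, where 71.3% of the 24458 genes did, so the share is close to that of all genes. The 7 include Polr3e, whose call does not count as a test, since the KO hippocampal libraries chose the genes. In the 8 WT mice alone 8 of the 9 passed. Over the 4 alternative settings of this comparison, those mice included, 15456 to 17944 of all genes passed. Means here are CPM scaled over all 32 libraries. Polr3k was 50.5 ± 3.81 CPM in vermis and 35.6 ± 2.04 CPM in hippocampus (SD, n = 16 each) and was higher in vermis in 16 of 16 mice. Its log2 fold change of 0.50 ± 0.040 had an adjusted p of 6.74e-10 by edgeR's quasi-likelihood test.

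Polr3g was 3.28 ± 0.539 CPM in vermis and 4.67 ± 0.426 CPM in hippocampus, lower in vermis in 16 of 16 mice, with a log2 fold change of -0.52 ± 0.066 and an adjusted p of 6.93e-07 by edgeR's quasi-likelihood test. Its alternative form Polr3gl was 19.2 ± 1.44 CPM in vermis and 18.8 ± 1.76 CPM in hippocampus, with a log2 fold change of 0.04 ± 0.046 that did not pass (adjusted p = 0.480). Polr3e was 40.3 ± 4.01 CPM in vermis and 49.2 ± 7.97 CPM in hippocampus and was lower in vermis in 16 of 16 mice. Its log2 fold change was -0.28 ± 0.044, given without a test because the KO hippocampal libraries chose the genes. In the 8 WT mice, which did not enter that choice, it was -0.24 with an adjusted p of 0.000662 by edgeR's quasi-likelihood test.

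Polr3a, Polr3b and Polr3c rose in vermis against hippocampus, by 0.14, 0.21 and 0.23 on the log2 scale, in 14, 14 and 15 of 16 mice. Polr3d fell by 0.11 with an adjusted p of 0.0170, in 13 of 16 mice, but did not pass in the 8 WT mice alone (adjusted p = 0.728) or without the low-count filter (adjusted p = 0.138). Polr3f, at 0.09 with an adjusted p of 0.0649, did not pass, but did in the 8 WT mice alone (adjusted p = 0.0378) and without the filter (adjusted p = 0.0195). Polr3gl also passed in the 8 WT mice alone (adjusted p = 0.0166).

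Levels of the other subunits were set beside Polr3e over the 16 libraries of a tissue, as Pearson correlations of log2 CPM that describe these libraries and share depth and tissue composition. Polr3a had 0.514 in hippocampus and 0.583 in vermis, and the partner Polr3d had -0.299 in hippocampus and 0.492 in vermis. The other 6 lay between -0.388 for Polr3k and 0.301 for Polr3f in hippocampus, and between -0.368 for Polr3c and 0.654 for Polr3gl in vermis. The genes most like Polr3e, given next, were picked by this correlation in hippocampus, so subunits outside that list fall below them there by construction. In vermis Polr3gl, Polr3a and Polr3d lay among the values of those genes. The hippocampal correlations also contain the contrast that chose the genes.

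The 5 genes most like Polr3e in hippocampus, among 14018 named genes with a mean of at least 1 CPM, were Zfp276, Sgk1, Plekhf1, Arrdc2 and Trmt1l. Their correlations with Polr3e over 16 hippocampal libraries were 0.936, 0.911, 0.885, 0.879 and 0.871, and over 16 vermis libraries 0.787, 0.646, 0.465, 0.460 and 0.402 in that order. In all, 25 genes had a correlation of at least 0.8 in hippocampus and 12 one of at most -0.8. Sgk1 encodes the serum- and glucocorticoid-regulated kinase and Zfp276 a zinc finger protein. Their log2 fold changes in KO hippocampus, cPAE over cPSE, were -0.78 for Sgk1, -0.76 for Plekhf1, -0.55 for Arrdc2, -0.39 for Zfp276 and -0.17 for Trmt1l, beside -0.52 for Polr3e, and in WT hippocampus all 5 were above 0, between 0.12 for Trmt1l and 0.45 for Plekhf1. These values describe the same libraries in which Polr3e was chosen, and 3 of the 5 remained among the top 5 when the KO cPAE library F3 or M1, the WT cPAE library F1 or the WT cPSE library M3 was left out.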

How the data were processed

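The authors deposited raw counts per gene and per transcript model. Per the submitters' processing notes, reads were handled with bcl2fastq and cutadapt 5.0, aligned or counted with tools that include STAR 2.7.10a and featureCounts 2.0.6 on GRCm39, and DESeq2 was also used. No strand setting is stated in the sources used here. Between 87.0% and 92.1% of counts from 1 to 10 were even, so mates of a pair were counted separately. The deposited counts of each tissue (16 libraries, 4 per group) were fitted in R 4.3.3 with edgeR 4.0.16 (filterByExpr, TMM, robust quasi-likelihood F-tests, sex as covariate), with Benjamini-Hochberg adjustment at 0.05 over 23394 genes in hippocampus and 22441 in vermis. Vermis and hippocampus were compared with mouse as a block. One spread was estimated per tissue over all its groups, and nothing says that the mice came from separate litters. No library was a copy of another of its group, since chi-square over degrees of freedom was 9.05 to 234 in the 48 pairs within groups. Pairs across groups were not compared in this way. In counts simulated with 1.5-fold and 2-fold changes in WT, 55% and 77% were recovered in hippocampus and 49% and 76% in vermis. The 100 genes changed by each fold were drawn above a minimum mean count, and counts were drawn independently, without deviating libraries. Smaller changes were not simulated in these comparisons, so the shares do not say how often those would be found. Correlations used log2 CPM with a prior count of 2. The genes and lists were chosen with earlier results of these data known, and 1 listed gene is not reported here. The rule for named genes took all 9 subunits, list members that passed and the 5 genes most like Polr3e. The alternatives were DESeq2 1.42.0, scaling by RLE, keeping all low-count genes, leaving out sex, blocking on the replicate label, an offset for gene length (lowess span 0.3), protein-coding genes only, the compared groups only, a prior count of 0.5, the 8 WT mice, no mouse block, and each library left out.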

Additional observations from a re-analysis of the deposited data

Results flagged for a closer look

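Of the 72 groups of 4 libraries checked for the 9 subunits, 4 held a library far from the other 3, where chance alone gives about 1 in 20. Polr3b had 19.3 CPM in the WT cPSE hippocampal library M1, against 16.2 to 16.6 CPM in the other 3, a gap of 0.872 of the group's range. Polr3c had 20.7 CPM in the WT cPAE vermis library M3, against 22.5 to 22.8 CPM, a gap of 0.867. Polr3k had 34.3 CPM in the WT cPAE hippocampal library F3, against 32.8 to 33.0 CPM, a gap of 0.871, and 50.5 CPM in the WT cPSE vermis library M3, against 53.3 to 53.8 CPM, a gap of 0.863. None of the 4 concerns Polr3e. The exposure effect on Polr3e in hippocampus differed between KO and WT by -0.74 on the log2 scale, a value that contains the contrast for which the genes were chosen.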

How the results depend on the processing

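Of 3340 values recomputed, none of those called reversed its direction, and 143 of those not called changed sign. In the comparisons that were tested, 86 values that had been called no longer passed. Lost calls were not counted in the 4 hippocampal comparisons given without a test, so the 86 leave out any of Polr3e there. The log2 fold change of Polr3e in KO hippocampus, cPAE over cPSE, ranged from -0.548 to -0.452 over the alternative settings. Polr3e in KO against WT cPAE vermis ranged from -0.249 to -0.193 on the log2 scale when single libraries were left out. The count of the 9 subunits called in that comparison was 1 with DESeq2 (Polr3b) and 0 to 2 when single libraries were left out (2, Polr3b and Polr3k, without the KO cPAE library F3, and 1, Polr3e, without the WT cPSE library F1). In KO vermis after ethanol that count was 0 to 1 (1, Polr3b, without the KO cPAE library F3). Calls among the further 8 subunits of polymerase III within cPSE numbered 3 to 6 when single libraries were left out and 7 with DESeq2, and 3 to 5 of the 5 genes most like Polr3e remained. Calls over all genes moved more. WT hippocampus after ethanol had 0 calls, 608 without the low-count filter, 128 with DESeq2 and 0 to 21 when single libraries were left out (21 without the WT cPSE library M1). KO vermis after ethanol had 20, and 52 without the filter, 31 among protein-coding genes, 1 in the compared groups only, 213 with DESeq2 and 2 to 616 when single libraries were left out (616 without the KO cPAE library F3). WT vermis after ethanol had 1, and 4 without the filter, 0 without sex, 0 with a length offset, 5 in the compared groups only, 17 with DESeq2 and 0 to 2 when single libraries were left out. KO against WT cPAE vermis had 1690, and 693 in the compared groups only, 3013 with DESeq2 and 973 to 5092 when single libraries were left out (5092 without the KO cPAE library F3, 973 without the WT cPAE library M1, 1045 without the WT cPAE library F3 and 1042 without the KO cPAE library M3). The difference of exposure effects in vermis had 24, and 53 without the filter, 41 without sex, 241 with DESeq2 and 3 to 168 when single libraries were left out (168 without the KO cPAE library F3). Leaving out a library or fitting only the compared groups changes the number of samples behind the spread; the cause of the other changes was not tested.

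With the replicate label as a block, calls over all genes were 7 in KO vermis and 0 in WT vermis after ethanol and 6 for the difference of effects, the further 8 subunits had 4 calls within cPSE, and 0 of the 9 subunits were called in each exposure or genotype comparison that was tested. Deviations of libraries with the same label in different groups correlated between -0.27 and 0.41 in hippocampus and between -0.31 and 0.26 in vermis. Their medians were 0.05 in hippocampus and 0.08 in vermis, against -0.03 and -0.02 for libraries with different labels. These correlations cannot decide whether the labels pair the samples, since a weak shared batch or litter would leave such values too.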
